A study of Mus musculus with 87 samples.

Results

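The genes described are 10 immediate early genes, Fos, Fosb, Jun, Junb, Egr1, Egr2, Egr3, Nr4a1, Atf3 and Ier2, chosen by name from the 25277 gene symbols of each count table. All 10 were found, and none of their 560 values, 10 genes in 56 libraries, was 0. By the title of the series the mice were semi-cloned, meaning that a haploid embryonic stem cell whose genome comes from a father replaced the sperm at fertilisation. The labels give polyadenylated RNA as the molecule and a whole organ as the source of each library. The first E18.5 batch, taken before birth, had pTKO and pWT libraries of 5 organs, namely brain, lung, liver, heart and kidney (n = 2 per group). The second E18.5 batch had pIR and pWT libraries of heart and of liver (n = 4 per group). One day after birth, at P1, pIR (n = 2) and pWT (n = 3) libraries of lung, liver, heart and kidney were made, with no batch in the labels. The haploid cells of the study have the Dnmt genotypes TKO, STOP and WT, whereas the organs carry the labels pTKO, pIR and pWT alone, which the sources used here do not spell out. They also do not say that libraries of a group came from separate animals, so p-values measure the spread between libraries.

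Immediate early genes are transcribed within minutes of a stimulus without new protein synthesis, through transcription factors that are already present. Growth factors, calcium, cyclic AMP and stress reach them through MAP kinases, serum response factor with its Elk partners, and CREB. Most encode transcription factors: Fos and Jun proteins pair as AP-1, Egr proteins bind GC-rich sites through zinc fingers, Nr4a1 is an orphan nuclear receptor and Atf3 is a stress-induced member of the ATF/CREB family. Dissection and handling of tissue are known to induce the same genes. The sources used here do not give the time between killing and freezing, and its part in the values below was not tested. In bulk tissue, fewer cells of a type and less RNA per cell cannot be told apart.

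Upstream sequences are shown for Jun, the member with the firmest call below, and for Fos, Fosb, Nr4a1 and Atf3, which had some of the largest fold changes, because such genes are known to be induced through short sites close to the start. They are the 250 bases before the RefSeq start in GRCm38.p6, written 5′ to 3′ on the strand of the gene, at chr4:95052223-95052472 (minus strand) for Jun, chr12:85473640-85473889 (plus strand) for Fos, chr7:19310046-19310295 (minus strand) for Fosb, chr15:101266596-101266845 (plus strand) for Nr4a1 and chr1:191183334-191183583 (minus strand) for Atf3. Capitals mark TGACG, the core of the cyclic AMP response element, on either strand (CGTCA on the other), and TATAAA on the strand of the gene.
Jun: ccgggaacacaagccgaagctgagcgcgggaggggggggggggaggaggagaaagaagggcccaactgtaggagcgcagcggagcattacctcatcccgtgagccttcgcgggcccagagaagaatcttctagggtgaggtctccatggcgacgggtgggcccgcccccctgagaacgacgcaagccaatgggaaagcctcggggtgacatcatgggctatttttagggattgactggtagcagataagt
Fos: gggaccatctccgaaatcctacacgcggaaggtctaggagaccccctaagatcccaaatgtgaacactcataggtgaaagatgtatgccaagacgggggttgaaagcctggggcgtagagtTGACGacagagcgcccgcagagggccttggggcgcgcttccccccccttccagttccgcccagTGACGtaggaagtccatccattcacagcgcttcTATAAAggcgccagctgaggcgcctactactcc
Fosb: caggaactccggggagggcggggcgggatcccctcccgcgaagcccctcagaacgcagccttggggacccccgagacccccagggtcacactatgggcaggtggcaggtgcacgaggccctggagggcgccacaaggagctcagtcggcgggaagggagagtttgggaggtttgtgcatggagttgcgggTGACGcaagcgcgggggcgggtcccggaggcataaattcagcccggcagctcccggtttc
Nr4a1: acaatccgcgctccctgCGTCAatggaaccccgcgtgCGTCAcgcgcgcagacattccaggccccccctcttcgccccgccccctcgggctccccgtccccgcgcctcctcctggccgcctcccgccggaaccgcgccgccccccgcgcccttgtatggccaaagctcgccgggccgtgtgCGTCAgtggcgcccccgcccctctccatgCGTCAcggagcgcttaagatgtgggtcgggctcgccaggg
Atf3: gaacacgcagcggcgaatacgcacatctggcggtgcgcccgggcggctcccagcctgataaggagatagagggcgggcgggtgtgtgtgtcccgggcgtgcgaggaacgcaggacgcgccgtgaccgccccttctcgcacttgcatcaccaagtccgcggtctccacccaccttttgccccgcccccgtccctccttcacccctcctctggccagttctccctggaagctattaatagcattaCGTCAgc

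TGACG began 129 and 66 bases before the start of Fos, 60 before Fosb and 7 before Atf3, and Nr4a1 held 4 copies. Of 32851 mouse promoter windows in the same table, each 250 bases before to 50 after a start, 20.8% held TGACG on either strand, 0.231% held at least 4 copies and 8.32% held TATAAA. Jun, whose sequence carries no capitals, had no TGACG and Junb had 1, while the 5 windows of Egr2 held 0 or 2. The CArG box bound by serum response factor was found in 1.63% of all windows and, among the 7 members matched in the table, in windows of Egr2. These are matches of letters, not measured sites. No sequence is shown for Egr1, Egr3 and Ier2.

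In the mm10 annotation, GENCODE M21, Fos lies at chr12:85473890-85477273, Fosb at chr7:19302696-19310051, Jun at chr4:95049034-95052222 and Junb at chr8:84974484-84978718. Egr1 lies at chr18:34859823-34864984, Egr2 at chr10:67535475-67542188 and Egr3 at chr14:70077203-70082614. Nr4a1 lies at chr15:101254269-101274795, Atf3 at chr1:191170296-191218039 and Ier2 at chr8:84661331-84662852. Jun overlaps Junos, Junb overlaps Prdx2 and Atf3 overlaps Gm24748. The sources used here do not say whether counting used strand, so reads of these partners cannot be told apart and the levels of these 3 genes are less certain.

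Library totals were 10.7 to 37.4 M counts in E18.5 batch 1, 16.3 to 23.8 M in batch 2 and 13.9 to 21.0 M at P1. Every tissue carried its own markers, all of them at 1 CPM or more, where CPM is the count scaled to a common library total. For liver genes the sum was at least 56720 CPM in livers and at most 2675 CPM elsewhere, reached in pTKO heart replicate 1 of E18.5. Dnmt1, the maintenance DNA methyltransferase, fell in pTKO brain by 0.79 on the log2 scale (adjusted p = 4.26e-05) and in pTKO heart by 0.91 (adjusted p = 0.0351, both by edgeR's quasi-likelihood test with Benjamini-Hochberg adjustment), and was not called in any pIR comparison. Its log2 fold changes were also negative in pTKO kidney (-0.91), liver (-1.04) and lung (-0.82), where 0% of all genes were called.

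The members were compared with pWT in 11 pairs of groups. Values per library are in CPM of the library total, log2 fold changes come from the edgeR fit with TMM scaling, SE is the standard error, and a gene was called at a Benjamini-Hochberg adjusted p under 0.05 over all genes tested. The median log2 fold change over all genes tested lay between -0.03 and 0.03 in each comparison.

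In pTKO tissues 1 call was made among the members, a fall of Ier2 in heart. Brain had 0 of 10 members called (7 passed the count filter) where 1.75% of all genes were called, and heart had 1 of 10 where 26.8% were. Kidney, liver and lung had 0 members called where 0% of genes were. At an unadjusted p under 0.05 in edgeR's quasi-likelihood test, 1 member passed in each of the other organs, where 16.8% of all genes did in brain, 14.3% in kidney, 4.30% in liver and 3.04% in lung. DESeq2 called 0 members in brain, kidney and lung and 1 in liver. Over all genes it called 258 of 15531 in brain, 353 of 16595 in kidney, 13 of 16032 in lung and 60 of 14947 in liver.

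In pIR tissues at E18.5, fold changes of most members were positive in heart and liver, with 0 members called. In heart 8 of 10 were positive and 7 had an unadjusted p under 0.05, where 5.91% of all genes did and 0.0137% (2 genes, neither of them a member) were called. In liver 8 members passed the count filter, all 8 were positive and 7 had an unadjusted p under 0.05, where 5.55% of all genes did and 0% were called. DESeq2 called 0 members in heart and 1 in liver, where it called 20 of 14611 genes in heart and 11 of 14652 in liver. The 7 in heart were 7 or 8 under each alternative run. The 7 in liver were 4 to 7, with 4 under DESeq2, with all groups of the stage and batch in one fit, without pIR replicate 2 and without pWT replicate 1.

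At P1 calls among pIR tissues were 0 of 10 in heart, 1 in kidney, 4 in liver and 1 in lung, all of them rises. Over all genes, 2.32% were called in heart, 10.6% in kidney, 39.2% in liver and 2.60% in lung. In heart 8 of 10 members had an unadjusted p under 0.05 in edgeR's quasi-likelihood test, against 24.9% of all genes. In kidney 2 of 10 did against 30.1%, in liver 5 of the 8 tested against 47.7%, and in lung 5 of 10 against 19.7%. The kidney share lay below that of all genes. Fold changes were positive for all 10 members in heart, 8 of 10 in kidney, 7 of 8 in liver and 9 of 10 in lung. DESeq2 called 6 members in P1 heart, as did edgeR without a count filter. For edgeR without the filter the share of all genes called is not given here. At an unadjusted p under 0.05 it passed 8 of 10 members in P1 heart, against 20.9% of all genes. Over all genes DESeq2 called 1601 of 15021 there, where edgeR with the filter called 349. Without pIR replicate 2 the median log2 fold change of the members in P1 heart was 0.79, in place of 1.17.

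**Figure D1:**
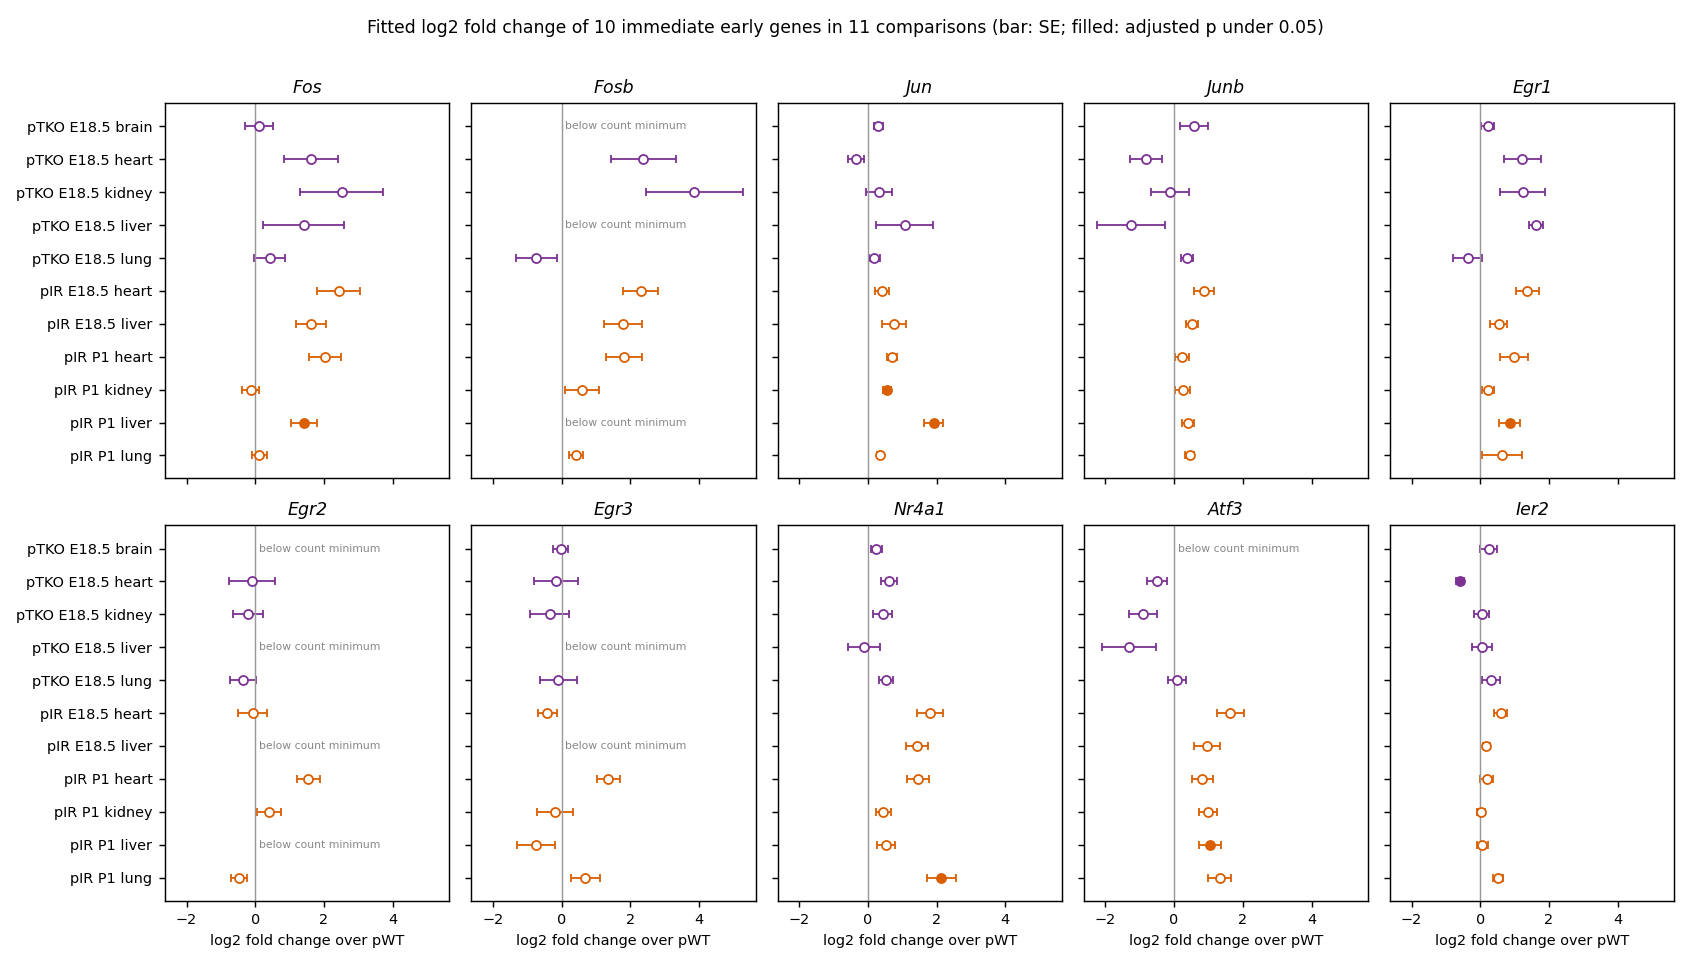
Fitted log2 fold change over pWT (horizontal axis) of each gene in the 11 comparisons (vertical axis), pTKO above pIR. Points are estimates, bars their SE, filled points genes called at an adjusted p under 0.05, and comparisons in which a gene fell below the count minimum are marked in words. The 6 filled pIR points are Jun in P1 kidney and liver, Fos, Egr1 and Atf3 in P1 liver and Nr4a1 in P1 lung, and the filled pTKO point is Ier2 in heart.

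Averaged as log2(CPM + 1) over the 10 genes, the level was 4.58 ± 0.56 in E18.5 pIR hearts and 3.56 ± 0.39 in pWT hearts of batch 2 (SD, n = 4 each). In livers of that batch it was 2.84 ± 0.29 in pIR and 2.25 ± 0.25 in pWT. At P1 it was 4.60 ± 0.29 in pIR hearts (n = 2) and 3.55 ± 0.29 in pWT hearts (n = 3). The pIR and pWT libraries overlapped in this mean in E18.5 heart, E18.5 liver and P1 liver, and did not in P1 heart, kidney and lung.

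**Figure D2:**
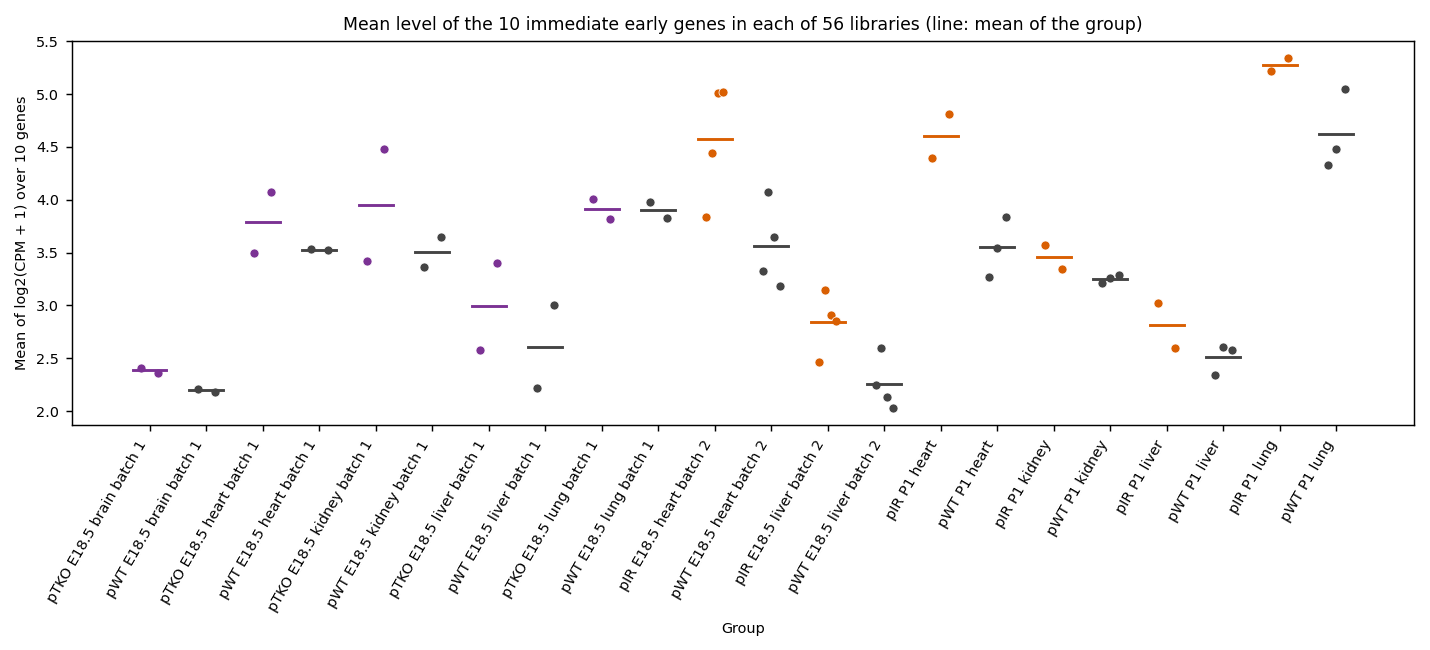
Mean of log2(CPM + 1) over the 10 genes (vertical axis) in each of the 56 libraries, by group (horizontal axis), with pTKO or pIR left of its pWT group and a line at the group mean. In P1 heart the pIR libraries lie at 4.40 and 4.81 and the pWT libraries between 3.27 and 3.84, and in P1 lung all libraries lie above those of the other P1 tissues of the same genotype label.

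Of the AP-1 subunits, Fos, the founding member of its family, was higher on average in pIR than in pWT hearts at both stages. In E18.5 heart it had 21.1, 54.1, 106.5 and 106.4 CPM in pIR libraries, against 4.40, 28.3, 17.2 and 3.78 CPM in pWT libraries. The highest pWT library exceeded the lowest pIR library, and the other 3 pIR libraries lay above all pWT libraries. The log2 fold change was 2.42 (SE 0.63, unadjusted p = 0.00284, adjusted p = 0.732 by edgeR's quasi-likelihood test with Benjamini-Hochberg adjustment).

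In P1 heart Fos had 16.2 and 24.2 CPM in pIR libraries, against 2.30, 3.40 and 8.12 CPM in pWT libraries. Both pIR libraries lay above all pWT libraries, and the log2 fold change of 2.03 (SE 0.46) had an adjusted p of 0.0597 in edgeR's quasi-likelihood test. It passed the threshold in 5 of 12 alternatives, whose adjusted p ran between 0.00078 and 0.283.

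Liver showed the same order of means for Fos. At E18.5 its values were 7.64, 26.8, 20.3 and 18.6 CPM in pIR libraries, against 4.66, 10.9, 6.36 and 1.63 CPM in pWT libraries, with 1 pIR library inside the pWT range (log2 fold change 1.62, SE 0.43, adjusted p = 0.691 by edgeR). At P1 Fos rose, with 8.59 and 4.95 CPM in pIR livers, against 1.91, 2.56 and 5.05 CPM in pWT livers (log2 fold change 1.41, SE 0.37, adjusted p = 0.00956 by edgeR's quasi-likelihood test). The lower pIR library lay just below the highest pWT library in CPM of the total, and above it after TMM scaling, at 5.87 against 4.61 scaled CPM. Without pIR replicate 1 the call was lost (1.02, adjusted p = 0.133).

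Fos was not called in P1 kidney or lung. In kidney it had 3.63 and 3.5 CPM in pIR libraries, against 4.26, 3.63 and 4.32 CPM in pWT libraries (log2 fold change -0.14, SE 0.24, adjusted p = 0.716). In lung it had 57.1 and 51.0 CPM in pIR, against 45.1, 35.3 and 65.5 CPM in pWT (0.12, SE 0.21, adjusted p = 0.796, both by edgeR's quasi-likelihood test). The pIR lung values lay inside the pWT range.

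Among pTKO tissues the Fos values of replicate 2 stood apart from those of replicate 1. Heart had 5.10 and 21.8 CPM in pTKO against 2.53 and 5.94 CPM in pWT, kidney 4.88 and 46.8 CPM in pTKO against 2.20 and 6.59 CPM in pWT, and liver 1.68 and 17.1 CPM in pTKO against 1.77 and 4.63 CPM in pWT. Log2 fold changes were 1.62 (SE 0.79), 2.51 (SE 1.20) and 1.41 (SE 1.18), none of them called. In each of the 3 tissues the pTKO replicate 1 value lay inside the pWT range or below it. Lung (9.81 and 23.5 CPM in pTKO, 13.8 and 12.1 CPM in pWT) and brain (2.19 and 1.92 CPM in pTKO, 1.59 and 2.14 CPM in pWT) were not called either.

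Fosb, a Fos relative that also dimerises with Jun proteins, had few counts. In E18.5 hearts it had 5.43, 12.3, 18.8 and 11.9 CPM in pIR libraries, against 0.985, 5.07, 2.71 and 0.976 CPM in pWT libraries. Every pIR value exceeded every pWT value. The log2 fold change was 2.30 (SE 0.50, unadjusted p = 0.000797, adjusted p = 0.556 by edgeR).

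In P1 heart Fosb had 1.99 and 7.08 CPM in pIR, against 0.935, 1.42 and 1.19 CPM in pWT, with no overlap (1.82, SE 0.53, adjusted p = 0.0991 by edgeR). Without pIR replicate 2, the higher of the pair, the fold change was 0.65. In E18.5 livers it had 0.450, 2.91, 1.73 and 1.72 CPM in pIR, against 0.512, 0.994, 0.253 and 0.191 CPM in pWT, and only the lowest pIR library overlapped (1.79, SE 0.55, adjusted p = 0.755 by edgeR). Fosb in P1 livers, 0.738 and 0.392 CPM in pIR against 0.142 to 0.425 CPM in pWT, did not pass the count filter.

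P1 lung had the highest mean Fosb of the pWT organs at that age. Its values were 5.47 and 6.36 CPM in pIR against 4.63, 3.99 and 4.32 CPM in pWT (0.42, SE 0.19, adjusted p = 0.280 by edgeR). P1 kidneys had 1.23 and 0.758 CPM in pIR, against 0.432, 0.937 and 0.656 CPM in pWT, and overlapped. In pTKO kidney the values were 0.976 and 15 CPM, against 0.675 and 0.385 CPM in pWT (3.86, SE 1.41, adjusted p = 0.347 by edgeR), and in pTKO heart 1.08 and 6.94 CPM against 0.763 and 0.683 CPM in pWT (2.38, SE 0.95, adjusted p = 0.124 by edgeR). As for Fos, 1 pTKO library of each pair carried the difference. Brain (0.640 and 0.432 CPM in pTKO, 0.0933 and 0.396 CPM in pWT) and pTKO liver (0.0841 and 3.46 CPM, against 0.0431 and 0.205 CPM in pWT) did not pass the count filter. Lung had 0.562 and 0.257 CPM in pTKO against 0.936 and 0.537 CPM in pWT, a negative estimate (-0.73, SE 0.60) where that of Fos was positive, with overlapping groups.

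**Figure D3:**
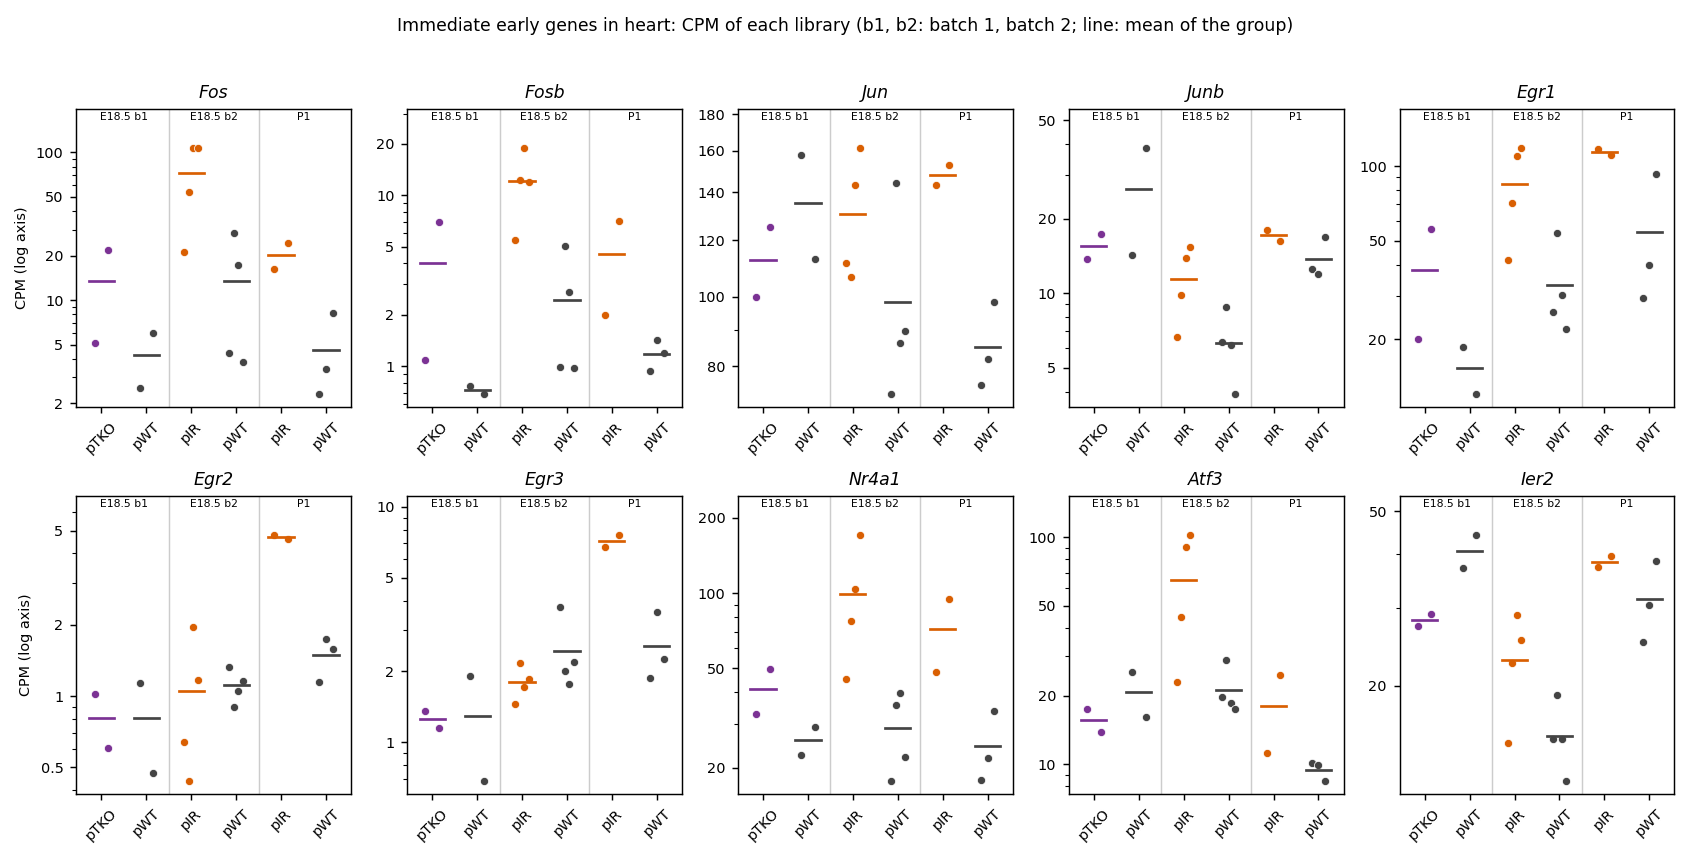
CPM in every heart library (vertical axis, log scale) of the 10 genes, with pTKO or pIR left of its pWT group, points for libraries and a line at the group mean. In P1 heart Egr2 lies at 4.77 and 4.62 CPM in pIR and at 1.15 to 1.75 CPM in pWT, and in E18.5 batch 2 Fosb and Nr4a1 do not overlap between pIR and pWT.

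Jun, the AP-1 subunit that can pair with itself or with Fos proteins, gave the call that held most firmly. In P1 liver it rose, with 54.8 and 23.3 CPM in pIR libraries, against 9.85, 15.8 and 13.1 CPM in pWT libraries. Both pIR libraries exceeded all pWT libraries. The log2 fold change was 1.92 (SE 0.28, adjusted p = 0.000244 by edgeR's quasi-likelihood test with Benjamini-Hochberg adjustment), and it was called in 12 of 12 alternatives, with an adjusted p of at most 0.0027.

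P1 kidney was the other tissue in which Jun rose, with 98.7 and 83.2 CPM in pIR against 62.4, 64.4 and 64.4 CPM in pWT (0.56, SE 0.11, adjusted p = 0.0209 by edgeR). The groups did not overlap, but the call was lost without pIR replicate 1 (0.44, adjusted p = 0.0941), without pWT replicate 1 (0.55, adjusted p = 0.107) and with all P1 groups in one fit (adjusted p = 0.103).

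In P1 heart and lung Jun was higher in every pIR library and was not called. Heart had 143 and 153 CPM in pIR, against 75.4, 81.9 and 98.3 CPM in pWT (0.70, SE 0.15, adjusted p = 0.0524 by edgeR), and lung 327 and 353 CPM in pIR, against 250.1, 272 and 257 CPM in pWT (0.35, SE 0.085, adjusted p = 0.0688). Both were called under scaling by library totals alone, at adjusted p = 0.0412 in heart and 0.0487 in lung. At E18.5 Jun had 112, 107, 144 and 161 CPM in pIR hearts, against 73.1, 144, 86.1 and 89.7 CPM in pWT hearts, and 25.0, 64.6, 35.6 and 28.1 CPM in pIR livers, against 20.6, 40.1, 17.5 and 11.3 CPM in pWT livers. Both pairs of groups overlapped (0.42, SE 0.20, in heart and 0.77, SE 0.35, in liver).

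In pTKO tissues Jun was not called. Brain had 43.5 and 31.4 CPM in pTKO against 29.3 and 30.0 CPM in pWT (0.31, SE 0.14, unadjusted p = 0.0413, adjusted p = 0.273 by edgeR), and heart 100.1 and 125 CPM in pTKO against 158 and 113 CPM in pWT (-0.35, SE 0.23). Kidney had 90.7 and 193 CPM in pTKO against 113 and 109 CPM in pWT, liver 17.2 and 81.2 CPM in pTKO against 13.7 and 28.6 CPM in pWT, and lung 247 and 267 CPM in pTKO against 239 and 233 CPM in pWT. Again pTKO kidney and liver replicate 2 held the high values.

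Junb, a Jun relative that can oppose Jun at some targets, was not called by edgeR in any of the 11 comparisons with all libraries. Its fold changes in pIR tissues were all positive, between 0.22 and 0.87. The largest was in E18.5 heart, with 6.66, 9.82, 13.9 and 15.4 CPM in pIR against 6.37, 8.82, 6.15 and 3.90 CPM in pWT (0.87, SE 0.28, adjusted p = 0.818 by edgeR). Of these pIR libraries 3 exceeded all pWT libraries.

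In P1 lung Junb had 74.8 and 62.9 CPM in pIR, against 43.3, 44.6 and 59.2 CPM in pWT (0.46, SE 0.13, adjusted p = 0.112 by edgeR), with no overlap, and was called there by DESeq2 (adjusted p = 0.0489) and by edgeR without pWT replicate 3 (0.60, adjusted p = 0.0481). P1 livers had 20.6 and 15 CPM in pIR against 14.8, 19.8 and 16.3 CPM in pWT, and E18.5 livers 10.9, 15.3, 10.2 and 8.77 CPM in pIR against 7.79, 10.1, 7.20 and 6.36 CPM in pWT. P1 hearts (18.0 and 16.3 CPM in pIR, 12.5, 11.9 and 16.9 CPM in pWT) and kidneys (16.2 and 16 CPM in pIR, 10.5, 16 and 15.4 CPM in pWT) overlapped or touched. In batch 1 the widest values were those of pWT replicate 2: heart had 13.8 and 17.3 CPM in pTKO against 14.2 and 38.5 CPM in pWT, and liver 25.4 and 31.7 CPM in pTKO against 13.4 and 109 CPM in pWT. The liver fold change of -1.25 (SE 1.00) became 0.98 without that pWT library. In brain Junb had 2.19 and 2.22 CPM in pTKO against 1.59 and 1.35 CPM in pWT (0.58). Lung had 59.7 and 59.5 CPM in pTKO against 48.6 and 47.5 CPM in pWT (0.38). Both pTKO libraries lay above both pWT libraries in brain and in lung. Kidney had 19.5 and 38.2 CPM in pTKO against 17.4 and 42.8 CPM in pWT (-0.11), and overlapped.

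Egr1, the zinc-finger factor induced by serum and injury, was called by edgeR in 1 of the 11 comparisons. In P1 liver it rose, with 46.3 and 21.8 CPM in pIR against 14.9, 32.8 and 23.4 CPM in pWT (0.85, SE 0.31, adjusted p = 0.0439 by edgeR's quasi-likelihood test). The lower pIR library lay inside the pWT range. The call rested on single libraries: the fold change was 0.26 (adjusted p = 0.586) without pIR replicate 1, 0.60 (0.136) without pWT replicate 1 and 0.85 (0.0928) without pWT replicate 3, and it was lost with DESeq2 (0.223), in the fit of all P1 groups (0.267) and with library totals alone (0.163).

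In E18.5 heart Egr1 had 41.9, 70.9, 109 and 118 CPM in pIR, against 25.9, 53.9, 30.2 and 22.1 CPM in pWT (1.37, SE 0.34, unadjusted p = 0.00196, adjusted p = 0.719 by edgeR), with the lowest pIR library below the highest pWT library. In P1 heart it had 117 and 111 CPM in pIR, against 29.3, 40.0 and 93.0 CPM in pWT, with no overlap (0.99, SE 0.41, adjusted p = 0.189). E18.5 livers had 22.7, 15.2, 18.4 and 18.0 CPM in pIR and 12.6, 12.4, 6.78 and 20.4 CPM in pWT. The P1 lungs spread widely within both genotypes, with 143 and 65.3 CPM in pIR and 23.2, 43.7 and 132 CPM in pWT. P1 kidneys overlapped as well, with 81.2 and 55.6 CPM in pIR and 58.0, 54.4 and 68.6 CPM in pWT.

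Of the pTKO tissues, liver had the tightest Egr1 values, 51.5 and 59.1 CPM in pTKO against 16.5 and 16.3 CPM in pWT (1.62, SE 0.20, unadjusted p = 0.000855). With 0% of genes called there, its adjusted p was 0.621 in edgeR's quasi-likelihood test, while DESeq2 called it (1.64, adjusted p = 4.68e-05). DESeq2 also called Egr1 in pTKO heart (1.23, adjusted p = 0.0446), where edgeR did not (adjusted p = 0.155). Heart had 20.1 and 55.8 CPM in pTKO against 18.6 and 12 CPM in pWT, and kidney 34.7 and 132 CPM in pTKO against 39.7 and 29.3 CPM in pWT. In lung Egr1 was lower on average in pTKO, at 18.2 and 9.50 CPM, than in pWT, at 23.1 and 14.4 CPM, and brain had 11.1 and 9.02 CPM in pTKO and 8.12 and 8.72 CPM in pWT.

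Egr2 and Egr3, relatives of Egr1 known for roles in myelinating cells and in muscle spindles, had few counts in most tissues. Both were higher in every pIR library of P1 heart. Egr2 had 4.77 and 4.62 CPM in pIR against 1.15, 1.75 and 1.58 CPM in pWT (1.54, SE 0.33, adjusted p = 0.0543 by edgeR), and Egr3 had 6.76 and 7.56 CPM in pIR against 1.87, 3.56 and 2.25 CPM in pWT (1.36, SE 0.34, adjusted p = 0.0743 by edgeR). In E18.5 heart both overlapped: Egr2 had 0.642, 0.436, 1.96 and 1.17 CPM in pIR against 1.33, 0.898, 1.05 and 1.16 CPM in pWT, and Egr3 1.46, 2.18, 1.72 and 1.85 CPM in pIR against 3.76, 2.01, 1.77 and 2.20 CPM in pWT. The log2 fold changes there were -0.08 (SE 0.42) and -0.42 (SE 0.28), and whether heart differed between stages was not tested.

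P1 lung ordered Egr2 the other way, with 3.14 and 3.59 CPM in pIR against 4.07, 4.04 and 5.66 CPM in pWT, lower in both pIR libraries (-0.48, SE 0.23, adjusted p = 0.299 by edgeR). Egr3 in P1 lung had 5.04 and 6.05 CPM in pIR against 1.42, 3.17 and 5.61 CPM in pWT, and in P1 liver 0.422 and 0.392 CPM in pIR against 0.567, 0.997 and 1.05 CPM in pWT. P1 kidneys overlapped for Egr3 (2.70 and 0.817 CPM in pIR, 2.90, 1.70 and 1.64 CPM in pWT) and had 1.47 and 1.69 CPM of Egr2 in pIR against 1.42, 1.17 and 1.15 CPM in pWT. In E18.5 brain Egr3, which neurons are known to use, had 7.31 and 6.55 CPM in pTKO and 7.93 and 6.02 CPM in pWT. The 7 fold changes tested for Egr2 and Egr3 in pTKO tissues lay between -0.36 and -0.03.

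Nr4a1, a nuclear receptor that acts without a known physiological ligand, was higher in every pIR library in E18.5 heart and in P1 heart, kidney and lung. In P1 lung it rose, with 94.5 and 176 CPM in pIR against 17.5, 20.6 and 52.5 CPM in pWT. The log2 fold change was 2.14 (SE 0.42, adjusted p = 0.0392 by edgeR's quasi-likelihood test with Benjamini-Hochberg adjustment). The adjusted p was 0.0840 without pIR replicate 1, 0.278 without pIR replicate 2 (fold change 1.62), 0.0562 without pWT replicate 1 and 0.0834 without pWT replicate 2.

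E18.5 heart had 45.4, 77.0, 104 and 170.3 CPM of Nr4a1 in pIR, against 17.6, 35.7, 39.9 and 22.1 CPM in pWT (1.80, SE 0.38, unadjusted p = 0.000635, adjusted p = 0.488 by edgeR). P1 heart had 48.3 and 94.9 CPM in pIR, against 17.9, 21.8 and 33.7 CPM in pWT (1.45, SE 0.32, adjusted p = 0.0584). Both pairs of groups were apart. In E18.5 liver the values were 2.30, 4.30, 6.68 and 6.92 CPM in pIR, against 1.53, 2.77, 1.6 and 1.58 CPM in pWT (1.43, SE 0.32, unadjusted p = 0.000729, adjusted p = 0.691), and only the lowest pIR library fell below the highest pWT library.

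In P1 kidney the lower pIR library had 14.9 CPM of Nr4a1, against 9.87, 13.1 and 14.7 CPM in pWT (0.45, SE 0.21), and P1 liver had 5.75 and 5.89 CPM in pIR against 3.83, 6.41 and 5.05 CPM in pWT. In pTKO the fold changes were small, from -0.11 in liver to 0.61 in heart. Heart had 32.8 and 49.7 CPM in pTKO against 22.5 and 29.0 CPM in pWT, and lung 21.6 and 20.6 CPM in pTKO against 15.6 and 14.9 CPM in pWT (0.53, SE 0.20, unadjusted p = 0.0429, adjusted p = 0.804 by edgeR). Neither tissue overlapped. Brain had 14.5 and 15 CPM in pTKO against 13.4 and 11.2 CPM in pWT, also without overlap. Kidney had 24.2 and 33.2 CPM in pTKO against 17.0 and 24.4 CPM in pWT, and overlapped.

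Atf3, a bZIP factor of the stress response that often acts as a repressor, was positive with an unadjusted p under 0.05 by edgeR in all 6 pIR comparisons, and was called in P1 liver. Over all genes that threshold was passed by 5.91% in E18.5 heart and 5.55% in E18.5 liver. At P1 it was passed by 24.9% in heart, 30.1% in kidney, 47.7% in liver and 19.7% in lung. In P1 liver Atf3 rose, with 4.01 and 3.09 CPM in pIR against 2.83, 1.64 and 2.1 CPM in pWT, with no overlap (1.04, SE 0.32, adjusted p = 0.0235 by edgeR's quasi-likelihood test). The adjusted p was 0.157 without pIR replicate 1, 0.0580 without pIR replicate 2, 0.0626 without pWT replicate 2, 0.0587 without pWT replicate 3 and 0.1 with library totals alone.

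In E18.5 heart Atf3 had 23.0, 44.6, 91.0 and 102 CPM in pIR, against 19.8, 28.8, 18.7 and 17.6 CPM in pWT (1.63, SE 0.39, unadjusted p = 0.00176, adjusted p = 0.719 by edgeR), and pIR replicate 1 alone lay inside the pWT range. In E18.5 liver it had 1.65, 10.5, 5.20 and 6.84 CPM in pIR, against 2.90, 3.15, 3.33 and 3.06 CPM in pWT (0.96, SE 0.38, adjusted p = 0.880). There pIR replicate 1 was the lowest of the 8 libraries and the other 3 pIR libraries were the highest. P1 lungs had 13.7 and 37.1 CPM in pIR against 10.3, 9.15 and 10.1 CPM in pWT (1.33, SE 0.34, adjusted p = 0.0811), and P1 hearts 11.2 and 24.8 CPM in pIR against 10.1, 9.92 and 8.39 CPM in pWT (0.82, SE 0.31, adjusted p = 0.158).

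P1 kidneys had 3.87 and 5.02 CPM of Atf3 in pIR against 2.47, 2.22 and 2.29 CPM in pWT, higher in both pIR libraries (0.98, SE 0.26, adjusted p = 0.0521 by edgeR). In 3 pTKO tissues the estimates were negative. Heart had 17.6 and 13.8 CPM in pTKO against 25.5 and 16.1 CPM in pWT (-0.50, SE 0.30), kidney 3.68 and 4.43 CPM in pTKO against 5.13 and 9.68 CPM in pWT (-0.91, SE 0.40), and liver 2.02 and 2.07 CPM in pTKO against 1.77 and 7.49 CPM in pWT (-1.32, SE 0.78). None was called, the pTKO and pIR libraries of E18.5 carry different batch labels, and the difference between them was not tested.

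Ier2, a small nuclear protein of the immediate early response, gave the call in pTKO. In pTKO heart it fell, with 27.3 and 29.1 CPM against 37.1 and 44.0 CPM in pWT heart (-0.60, SE 0.12, adjusted p = 0.0309 by edgeR's quasi-likelihood test). Both pTKO libraries lay below both pWT libraries. The adjusted p was 0.237 without pTKO replicate 1 (-0.50), 0.183 without pTKO replicate 2 (-0.63), 0.0667 with all batch 1 groups in one fit (-0.74) and 0.0641 with the replicate numbers crossed as a block. In this heart comparison the summed liver markers were 2675 and 17.8 CPM in pTKO and 6.48 and 152 CPM in pWT, and the summed erythroid markers were 892 to 1793 CPM in pTKO and 2755 to 2908 CPM in pWT, and their part in the result was not tested.

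Ier2 was not called in the other 10 comparisons with pWT. E18.5 hearts of batch 2 had 14.8, 22.5, 29.0 and 25.4 CPM in pIR against 15.1, 19.0, 15.1 and 12.1 CPM in pWT (0.59, SE 0.19, unadjusted p = 0.0108, adjusted p = 0.818 by edgeR). P1 lungs had 110.4 and 93.7 CPM in pIR against 57.8, 66.9 and 84.2 CPM in pWT, with no overlap (0.52, SE 0.14, adjusted p = 0.0897). In P1 liver the direction depended on the scaling. There Ier2 had 23.6 and 19.8 CPM in pIR against 27.9, 27.9 and 23.5 CPM in pWT, with a log2 fold change of 0.06 after TMM scaling and -0.28 with library totals alone, and it was called in neither.

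**Figure D4:**
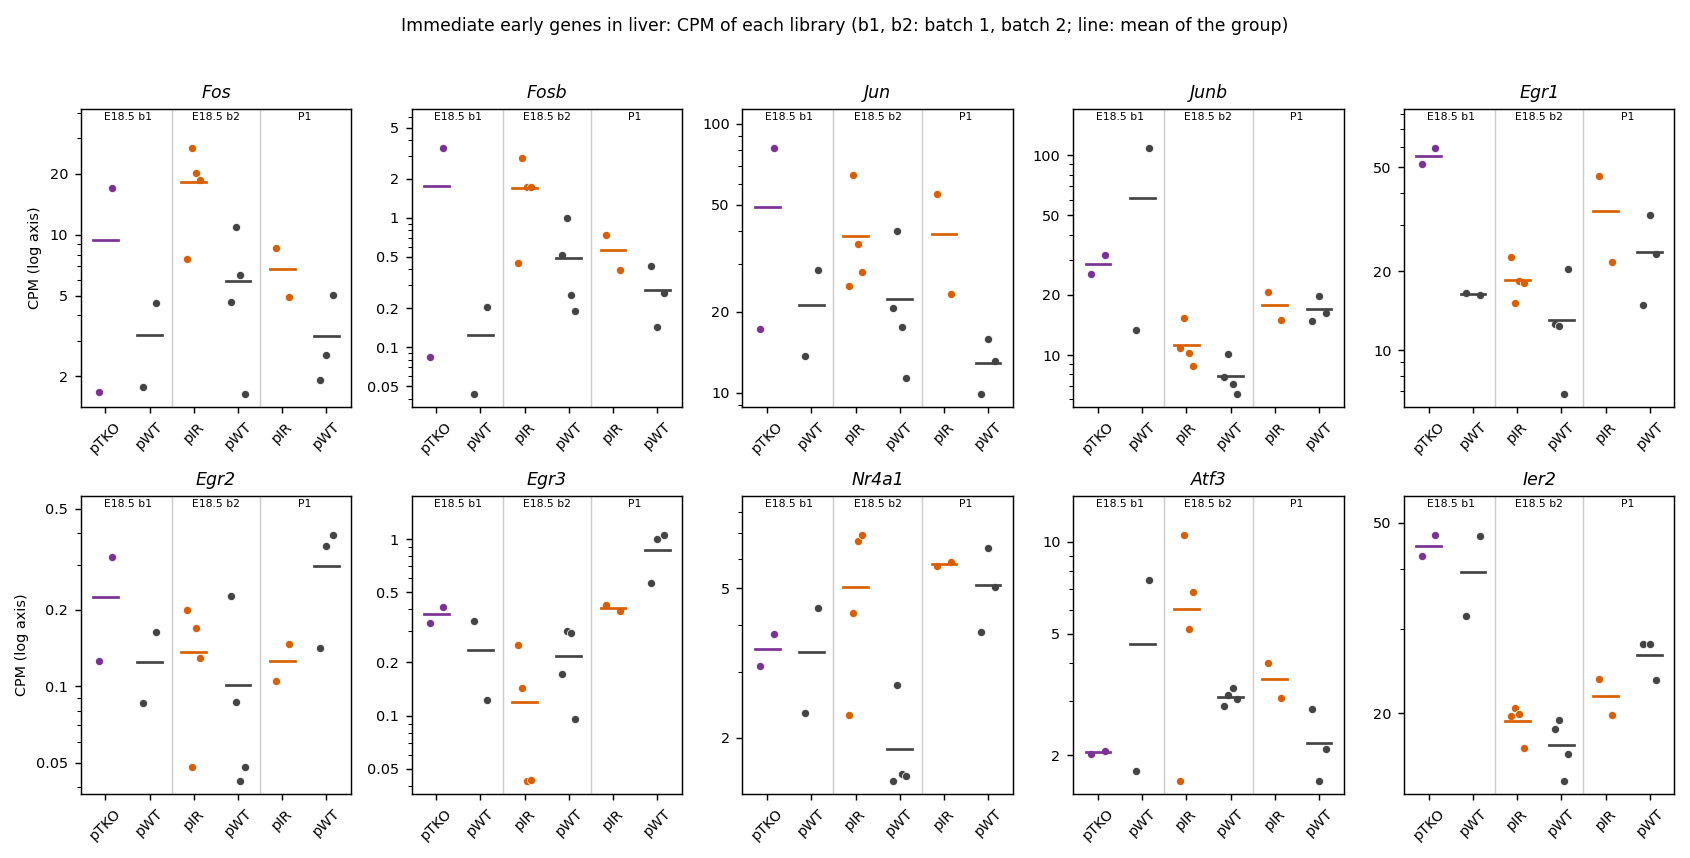
CPM in every liver library (vertical axis, log scale) of the 10 genes, with pTKO or pIR left of its pWT group, points for libraries and a line at the group mean. In P1 liver Jun lies at 23.3 and 54.8 CPM in pIR and at 9.85 to 15.8 CPM in pWT, and in batch 1 Egr1 lies at 51.5 and 59.1 CPM in pTKO and at 16.3 and 16.5 CPM in pWT.

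The P1 liver groups also differed in what else they held. Summed liver markers were 130900 to 146300 CPM in pIR and 56720 to 70780 CPM in pWT, with 8 of 9 tested markers called higher, and summed erythroid markers were 17390 to 27110 CPM in pIR and 60190 to 75170 CPM in pWT, with 8 of 9 called lower. The TMM factors were 0.845 and 0.89 in pIR libraries and 1.09 to 1.12 in pWT libraries. With library totals alone the median log2 fold change over all genes was -0.37, in place of -0.03, and 1678 genes were called higher and 5620 lower, in place of 3018 and 2694. Of the 4 members called, Fos (1.08, adjusted p = 0.0261 by edgeR) and Jun (1.59, adjusted p = 0.000465) were then still called and Egr1 and Atf3 were not. The part of the cell makeup in the result was not tested.

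Other P1 tissues differed in markers too, and their part in the members' values was not tested. In P1 heart the summed smooth muscle and fibroblast markers were 7211 to 10630 CPM in pIR and 3558 to 5094 CPM in pWT, with 4 of 10 called higher, and the summed erythroid markers were 2102 to 2414 CPM in pIR and 3751 to 4620 CPM in pWT, with 3 of 7 called lower. The summed heart markers there were 43570 to 53110 CPM in pIR and 59710 to 70990 CPM in pWT. Of the heart markers Myl7 was called higher in pIR (log2 fold change 4.19). It had 2068 ± 2388 CPM in pIR and 104 ± 29.5 CPM in pWT (mean ± SD), so the pIR hearts differed widely in it. The liver markers Alb (-3.74), Afp (-4.21) and Apoa1 (-2.48) were called lower in P1 heart. In P1 kidney the summed kidney markers were 4171 to 4653 CPM in pIR and 2196 to 2644 CPM in pWT, with 6 of 10 called higher. There the summed smooth muscle and fibroblast markers were 4976 to 5175 CPM in pIR and 3230 to 3865 CPM in pWT, with 3 of 10 called higher, and the summed endothelial markers 1098 to 1237 CPM in pIR and 793 to 874 CPM in pWT, with 4 of 10 called higher. In P1 lung the summed smooth muscle and fibroblast markers were 6913 to 9063 CPM in pIR and 3918 to 5372 CPM in pWT, with 3 of 10 called higher, and the summed erythroid markers were 8598 to 11480 CPM in pIR and 17500 to 27370 CPM in pWT, with 4 of 9 called lower. In E18.5 heart and liver of pIR no marker was called, and the summed erythroid markers in heart were 1502 to 2804 CPM in pIR and 1095 to 9090 CPM in pWT. None of the markers in these lists was at 0 in these groups.

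Libraries of 1 group differed several-fold in some of these genes. In batch 1 the ratio of replicate 2 to replicate 1 for Fos was 4.28 in pTKO heart, 9.58 in pTKO kidney, 10.2 in pTKO liver and 2.40 in pTKO lung, but 0.873 in pTKO brain. For Fosb it was 6.44 in heart, 15.3 in kidney and 41.1 in liver of pTKO, and 0.46 in lung. In pWT the ratio for Junb was 2.72 in heart, 2.45 in kidney and 8.08 in liver. The sources used here do not say whether a replicate number marks 1 animal across tissues. The deviations of the 10 members from their group means correlated between same-numbered libraries of different tissues with a median r of 0.40 in pTKO and 0.345 in pWT of batch 1 (20 pairs of libraries each, over 10 genes), 0.445 in pIR and 0.39 in pWT of batch 2 (4 pairs each), and 0.30 in pIR (12 pairs) and 0.125 in pWT (18 pairs) at P1. With 2 libraries a group, deviations within a group are mirror images, so these are descriptions.

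**Figure D5:**
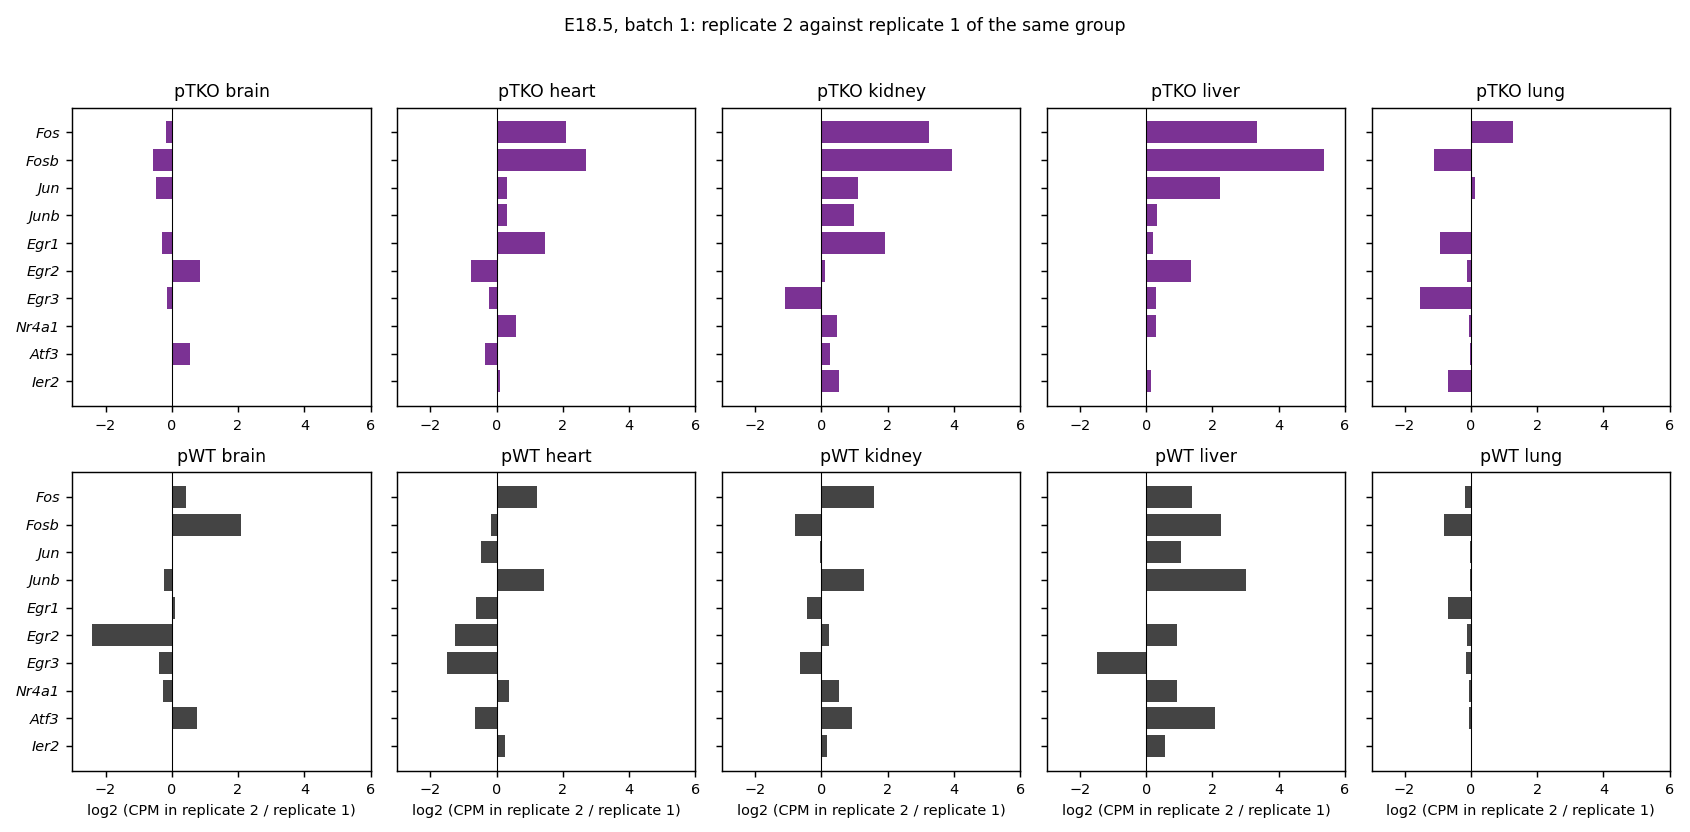
Log2 ratio of CPM in replicate 2 over replicate 1 (horizontal axis) for each gene (vertical axis) in the 5 batch 1 tissues, pTKO in the upper row and pWT in the lower. The longest bars are those of Fos and Fosb in pTKO kidney and liver, and of Junb in pWT liver, where the ratio was 8.08.

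Across all 56 libraries, after subtraction of group means, 40 of the 45 pairs of members correlated positively in log2(CPM + 1), with a median r of 0.38. The highest was Fos with Fosb (r = 0.82) and the lowest Fos with Egr3 (r = -0.21). Against the mean of the other members, Fos followed most closely (r = 0.79), then Ier2 (0.76), Fosb (0.72), Nr4a1 (0.71) and Jun (0.67), while Egr2 (0.24) and Egr3 (-0.01) did not follow. All genes share the library, so these values describe the libraries and carry no test.

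Whether the genotype difference itself varied between tissues was tested in 1 fit per batch. In batch 1 of E18.5, 0 of 10 members were called, where 0.0106% of all genes were, and in batch 2 also 0 of 10, where 0.00622% were, with 0 members at an unadjusted p under 0.05 in edgeR in either. At P1, 3 of 10 were called, a share near the 25.3% of all genes. Egr2 (adjusted p = 0.00621), Jun (0.0070) and Fos (0.0208, all by edgeR's quasi-likelihood test) differed between the 4 tissues, with log2 fold changes of 1.54 in heart, 0.40 in kidney and -0.48 in lung for Egr2, of 0.70, 0.56, 1.92 and 0.35 in heart, kidney, liver and lung for Jun, and of 2.03, -0.14, 1.41 and 0.12 for Fos. Other members, Nr4a1 among them (adjusted p = 0.0904), did not pass.

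Counts of members higher in every pIR library were read against the same count over all genes. That share was not counted for pTKO, nor for members lower in every library. Statements above that such groups did not overlap therefore have no background and only describe the libraries. In P1 heart, 8 of 10 members had all pIR libraries above all pWT libraries by CPM, where 29.4% of all genes tested did, 4 in kidney (20.7%), 2 in liver (16.2%) and 6 in lung (24.2%). In E18.5 heart 2 of 10 did, Fosb and Nr4a1, where 1.40% of genes did, and in E18.5 liver 0 of 10, also against 1.40%. The liver share is near its background.

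Most members differed between pWT organs, as did most genes. Among the 5 organs of E18.5 batch 1, 7 of 10 members differed in edgeR's quasi-likelihood test, where 85.2% of all genes did, and Fos (adjusted p = 0.0503), Fosb (0.137) and Egr2 (0.131) did not pass. Jun ran from lung over heart, kidney and brain to liver, with mean levels of 236 CPM in lung and 21.1 CPM in liver and no overlap between neighbours. Egr3 was highest in brain (6.98 CPM) and lowest in liver (0.234 CPM), with brain and lung overlapping, and Atf3 was highest in heart (20.8 CPM) and lowest in brain (0.881 CPM). At P1, 8 of 10 members differed between 4 organs, where 94.7% of genes did, and Egr1 (adjusted p = 0.422 by edgeR) and Egr3 (0.0537) did not pass. Lung had the highest mean of each of the 10.

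Per kilobase of exon, the P1 lung of pWT held most Jun (81.4 ± 3.53 RPKM), then Ier2 (45.7 ± 8.81), Junb (21.3 ± 3.84), Fos (20.7 ± 6.54), Egr1 (14.8 ± 12.9), Nr4a1 (8.60 ± 5.52), Atf3 (4.57 ± 0.278), Egr2 (1.35 ± 0.274), Egr3 (0.772 ± 0.477) and Fosb (0.690 ± 0.051, all RPKM as mean ± SD, n = 3). Neighbours that did not differ beyond their spread were Junb and Fos, Fos and Egr1, Egr1 and Nr4a1, Nr4a1 and Atf3, Egr2 and Egr3, and Egr3 and Fosb.

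The same label, pWT, also gave different levels in the 2 batches of E18.5. In heart Ier2 had 15.1, 19.0, 15.1 and 12.1 CPM in batch 2 against 37.1 and 44.0 CPM in batch 1 (log2 fold change -1.43, adjusted p = 0.000143 by edgeR), and Junb was lower in batch 2 as well (-2.07, adjusted p = 0.00204), whereas Egr1 was higher (1.07, adjusted p = 0.0378). That made 3 of 10 members called where 65.0% of all genes were. In liver 2 of 10 were called where 39.5% of genes were, Junb (-3.06, adjusted p = 0.0199) and Ier2 (-1.29, adjusted p = 0.0093).

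Among other early response genes, 13 of 33 tested were called higher in P1 liver and 5 lower, with a median log2 fold change of 0.10, where 39.2% of all genes were called and the median was -0.03. The calls were led by Bhlhe40, a bHLH repressor (3.07, adjusted p = 1.84e-06), Hes1, the Notch target (2.11, adjusted p = 1.03e-05), the RNA-binding Zfp36l1 (1.21) and the pseudokinase Trib1 (1.42, all by edgeR). Bhlhe40 also rose in P1 heart (0.74, adjusted p = 0.0428), where it was the 1 call of 35 tested (2.32% of all genes), and in P1 kidney (0.81, adjusted p = 0.0102), where Klf10 (0.66) and Zfp36 (0.56), which speeds mRNA decay, rose with it (3 of 35, against 10.6% of all genes). In P1 lung, with 4 of 36 called against 2.60% of all genes, Plk2 (0.89) and Ppp1r15a (0.48) rose and Ccn2 (-0.59) and Gadd45g (-0.77) fell. In pTKO heart, where 6 of 35 were called against 26.8% of all genes, 1 rose, Klf6 (0.64), and 5 fell, among them Rhob (-0.58), Gadd45b (-0.70) and Klf2 (-0.58). None was called in the other 6 comparisons.

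Of the bZIP partners of AP-1, in pTKO heart Jund fell (-0.82, adjusted p = 0.0215 by edgeR) with Batf (-1.27), and Atf2 (1.18) and Creb1 (2.11) rose, 4 of 14 tested where 26.8% of all genes were called. In P1 liver Nfil3 (1.10) and Crem (0.85) were among 3 that rose, and Mafk (-0.86) and Atf2 (-0.63) among 4 that fell, of 13 tested where 39.2% of all genes were called. Of the feedback inhibitors, which switch the response off, 6 of 14 rose and 0 fell in P1 liver, also beside 39.2% of all genes, with Spred2 (1.33, adjusted p = 0.000727), the ERK phosphatase Dusp6 (0.89), the Egr corepressor Nab1 (0.79) and Dusp5 (1.17). Of the 14 listed, 1 rose in pTKO brain, Spry4 (0.66, adjusted p = 0.0497 by edgeR), where 1.75% of all genes were called. In pTKO heart 1 rose, Nab1 (1.53), beside 26.8% of all genes, and in P1 kidney 1, Dusp8 (0.87), beside 10.6%. In P1 lung Dusp10 rose (0.61) and Nab2 fell (-0.44), where 2.60% of all genes were called.

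Of the upstream regulators of these promoters, 5 of 16 were called in pTKO heart and 6 of 16 in P1 liver, where 26.8% and 39.2% of all genes were called, and 1 of 16 in P1 kidney (10.6%). In pTKO heart Mef2c (1.19), Rps6ka3 (1.87) and Elk4 (0.80) rose, and 2 of 16 fell, among them the kinase Mapkapk2 (-0.58). In P1 liver 5 of 16 rose, with the serum response factor partners Elk4 (1.04, adjusted p = 0.000626 by edgeR) and Elk3 (0.75), and 1 fell. Elk3 rose in P1 kidney (0.65, adjusted p = 0.0326). In a separate list of 12 heat shock genes, Hspb1, a small heat shock protein, was called lower in P1 heart (-1.16), kidney (-0.96), liver (-1.58) and lung (-0.93). Over all genes 2.32%, 10.6%, 39.2% and 2.60% were called there. Of the same list Hsp90aa1 was also called lower in P1 heart (-0.94, adjusted p = 0.0428 by edgeR). The counts of that list called in each direction at P1 are not given here. Genes of that list went both ways in pTKO heart, where 26.8% of all genes were called: Hsp90aa1 (2.28) and Hspd1 (0.52) rose, and Bag3 (-0.52) and Dnajb1 (-0.64) fell.

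The genes whose deviations followed the members' mean most closely, among 13475 genes with at least 5 CPM on average, were Ccn1, a secreted matrix protein (r = 0.83 over 56 libraries), Zfp36 (0.81), the phosphatase Dusp1 (0.77), the linker histone gene H1f2 (0.75) and Btg2, an antiproliferative factor (0.67), followed by H3f3b (0.67), Mascrna (0.65), Rhob (0.62), Klf2 (0.61) and Map3k9 (0.60). Without the 2 libraries farthest from the median these values were 0.81, 0.80, 0.76, 0.69, 0.59, 0.61, 0.58, 0.59, 0.58 and 0.56. They are descriptions over libraries that share depth and preparation.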

How the data were processed

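Per the labels, the deposited tables hold raw counts, with a gene per line and a library per column. Per the submitters' processing notes the authors used Trim Galore 0.6.6, HISAT2 2.1.0 with mm10, featureCounts 1.6.4 and DESeq2. The use of strand, and which libraries were made with the poly(A) kit or the low-input kit that the labels' protocols describe, are not given in the sources used here. All values were whole numbers, 0 pairs of libraries were identical, and the chi-square per degree of freedom between libraries of a group was at least 3.65.

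Each comparison used the libraries of its stage, tissue and batch. The filter was filterByExpr at a minimum count of 10, and counts were tested with the quasi-likelihood test of edgeR 4.0.16 in R 4.3.3 after TMM scaling, with Benjamini-Hochberg adjustment over all genes tested. The SE was obtained as the log2 fold change over the root of F. CPM as printed take library totals without TMM. The procedure was tested on simulated data. Alternatives were DESeq2 1.42.0, median-of-ratios scaling, no count filter, all groups in one fit, a replicate block, no haemoglobin genes and each library left out. Scaling by library totals alone and a crossed block were chosen after seeing the data. All 10 members are described, and from other lists up to 4 called genes with the smallest p. The members and lists were chosen with earlier results of these data known. Promoter sequences come from RefSeq (GRCm38.p6), and 7 of the 10 members were matched to the table used.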

Additional observations from a re-analysis of the deposited data

Results flagged for a closer look

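Nr4a1 in pWT liver of E18.5 batch 2 had 1 library far from the others: replicate 2, at 2.77 CPM, lay above 1.53, 1.6 and 1.58 CPM, and the gap to its nearest neighbour was 0.947 of the range of the group. Of 40 groups of 4 libraries examined for the members, this was the 1 found, and chance alone gives about 1 in 20.

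The difference between pIR and pWT itself varied between the P1 tissues for 3 members in edgeR's quasi-likelihood test, where 25.3% of all genes did. Egr2 had an adjusted p of 0.00621, with a positive fold change in heart (1.54) and a negative one in lung (-0.48). Jun had an adjusted p of 0.0070, with its highest fold change in liver (1.92). Fos had an adjusted p of 0.0208, with fold changes above 1 in heart and liver and near 0 in kidney (-0.14) and lung (0.12).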

How the results depend on the processing

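Of 1235 member fold changes recomputed under alternatives, 1096 kept their direction and their side of the threshold, 71 passed it anew, 23 lost it, 44 changed sign without being called, and 1 changed sign and was called. That was Junb in pTKO liver, at -1.25 with all libraries, -2.09 without pWT replicate 1 and 0.98 without pWT replicate 2. The numbers of members called moved as follows. DESeq2 gave 2 in pTKO heart, 1 in pTKO liver, 1 in E18.5 pIR liver, 6 in P1 heart, 2 in P1 kidney and 4 in P1 lung. Over all genes DESeq2 called 4844 of 15075 in pTKO heart, 60 of 14947 in pTKO liver and 11 of 14652 in E18.5 pIR liver. At P1 it called 1601 of 15021 in heart, 2764 of 16234 in kidney and 1085 of 16203 in lung. Without a count filter there were 6 in P1 heart, 2 in P1 kidney and 2 in P1 lung, and with all groups of a stage and batch in one fit 0 in pTKO heart, 5 in P1 heart and 0 in P1 kidney. In edgeR without a filter, 20.9%, 25.0% and 16.7% of all genes had an unadjusted p under 0.05 in P1 heart, kidney and lung. In the one fit these shares were 36.4% in pTKO heart, 29.5% in P1 heart and 26.9% in P1 kidney. That threshold is looser than the one for calls. At it 8, 3 and 5 of 10 members passed without a filter in P1 heart, kidney and lung. In the one fit 1, 7 and 2 of 10 passed in pTKO heart, P1 heart and P1 kidney. The shares of all genes called under these settings are not given here. Library totals alone gave 2 each in P1 heart, P1 liver and P1 lung, where 511 of 15021, 7298 of 14588 and 409 of 16203 genes were called. Leaving out 1 library gave 0 to 1 in pTKO brain, 0 to 3 in pTKO heart, 0 to 5 in pTKO kidney and liver, 0 to 3 in pTKO lung, 0 to 4 in P1 heart, 0 to 1 in P1 kidney, 1 to 4 in P1 liver, 0 to 3 in P1 lung, and 1 to 4 for pWT liver between batches. The share of all genes at an unadjusted p under 0.05 in edgeR moved as well with 1 library left out. These counts are therefore not read as results about the members, and the cause was not tested. With 2 libraries a group, leaving out 1 leaves a lone library that is assumed to vary like the others.

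Same-numbered libraries of pTKO or pIR and pWT correlated in their deviations at -0.42 to 0.23. In groups of 2 libraries the deviations mirror each other, so these values cannot show whether the numbers pair libraries. With 4 libraries a group, at E18.5, r was -0.42 to 0.11 in heart and -0.18 to 0.11 in liver. In P1 lung r was 0.19 and 0.2 for equal numbers and between -0.2 and 0.04 for unequal ones. A replicate block gave 3 members in P1 heart and 8 in P1 lung, all but Fosb and Egr2, and otherwise stayed within 1.5 times the count. At an unadjusted p under 0.05 in edgeR, 7 members and 1946 genes passed with the block in P1 heart, against 8 and 3733 without it. In P1 lung 8 members and 3667 genes passed with the block, against 5 and 3198 without it. In the P1 test between tissues the replicate block called Fos and Nr4a1, and not Jun or Egr2. Crossed pairing, in pTKO heart, kidney and liver, gave 1, 0 and 0, with Egr1 called in heart in place of Ier2. The shares of all genes called with either block are not given here, so these counts are not read as results about the members. Libraries held 10.7 to 37.4 M counts, and Egr2, Egr3 and Fosb lie below the count minimum in several tissues.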
